A study of Mus musculus with 10 samples.

Results

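The difference between NOD and B10 mice in how their CD4-positive spleen cells responded to 4 h of stimulation was measured for 19938 genes on 10 of the 10 arrays of the study. For each gene it is the response in NOD (T1 minus T0) minus the response in B10 (T1 minus T0), on the log2 scale of the deposited intensities, and is called the response difference here. Arrays were placed in 4 groups by their titles: 3 B10 T0, 2 B10 T1, 3 NOD T0 and 2 NOD T1. The mice were females of 8 weeks; the labels give the NOD genotype as NODk and the B10 genotype as B10Br, and name no other allele or transgene. Cells were isolated from spleen with CD4 beads on an autoMACS sorter. T1 cells received PMA at 10 ng/ml and ionomycin at 1 uM. T0 is called basal, but the labels can also be read as culture without the drugs, and this could not be settled. Replicates are labelled biological without being tied to animals, so p-values measure the spread between these samples, which may be partly technical. In both strains T1 replicate 1 is not analysed here.

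The NOD strain is known for autoimmune diabetes, in which CD4 T cells take part, and B10 is a common control strain. These are general facts on NOD and B10, not on the NODk and B10Br genotypes of these mice. The labels say nothing of diabetes in the mice used. PMA switches on protein kinase C, and ionomycin lets calcium into the cell. Together they bypass the T cell receptor and act through AP-1, NF-kB and NFAT, transcription factors that switch on cytokine genes within hours.

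For most genes the responses of the strains lay close together, and a small set differed. The middle part of all response differences, between the 25th and the 75th percentile, ran from -0.13 to 0.16, with a median of 0.01, and the 1st and 99th percentiles were -0.68 and 0.61. At an adjusted p under 0.05 (limma), 49 of 19938 genes were called (0.246%). In 30 of them the NOD response lay below the B10 response (0.15% of all genes), and in 19 it lay above (0.0953%). The called genes included the cytokine genes Il4, Il13 and Csf2, the DNA sensor family gene Ifi202b and the arginine-splitting enzyme Arg1 among those with the higher B10 response. Among those with the higher NOD response were the neuropeptide gene Nts, the GTPase-activating protein gene Arhgap31 and the retinal reductase Dhrs3. Each array pair gives a T1 minus T0 difference, 6 pairs in a strain. For all 49 called genes the 6 B10 and 6 NOD differences did not overlap, which was so for 10.9% of all genes. The same arrays made the calls, so this describes the called genes and adds no support. The difference was at least 2-fold in 36 called genes, 12 with the higher NOD response and 24 with the higher B10 response. When the arrays were shifted to a common 75th percentile, 31 genes were called, 16 with the higher NOD response and 15 with the higher B10 response. Which genes were called depended on single arrays: leaving out 1 gave 13 calls (B10 T1 replicate 2), 19 (NOD T1 replicate 3), 21 (NOD T0 replicate 1), 22 (B10 T0 replicate 1), 25 (NOD T0 replicate 3), 28 (B10 T0 replicate 3), 29 (B10 T0 replicate 2), 32 (NOD T0 replicate 2), 57 (NOD T1 replicate 2) or 69 (B10 T1 replicate 3). All 10 omissions kept the calls of 11 genes and none kept those of 7. Below, a call said to be kept or lost without an array refers to these 10 omissions alone. Other settings ended calls too: 30 of the 49 genes stayed called with arrays at a common 75th percentile and 31 with array weights.

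**Figure D1:**
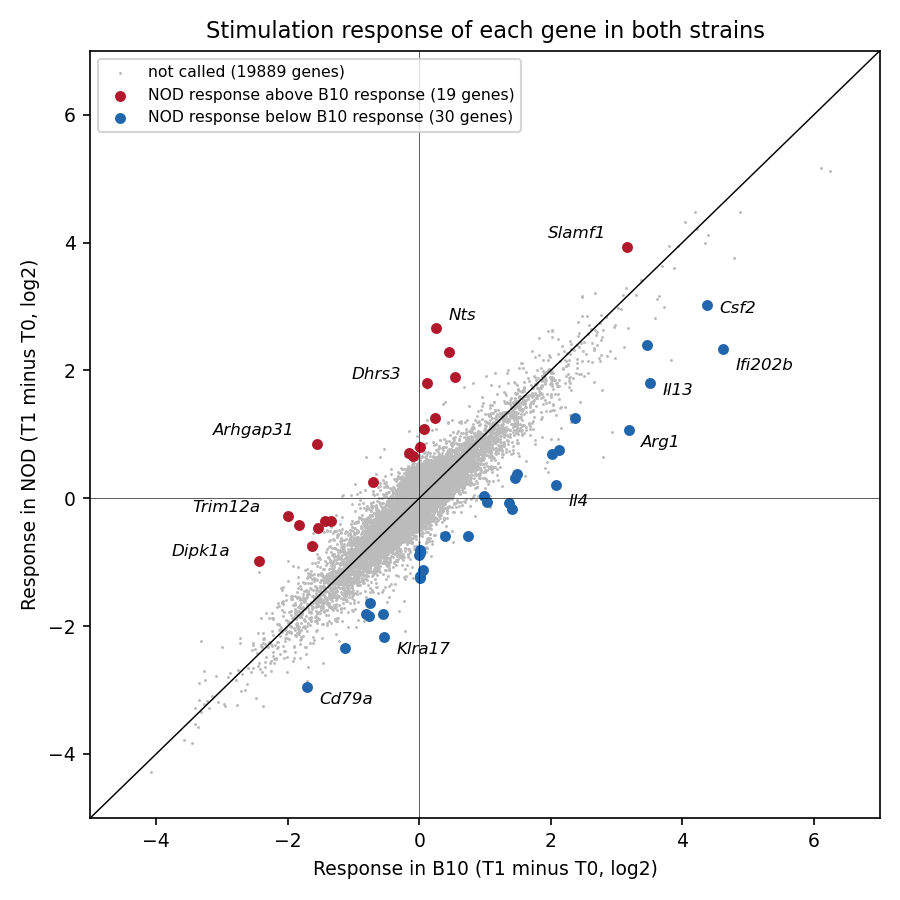
Response of each of 19938 genes to stimulation in B10 (horizontal axis, log2, T1 minus T0) and in NOD (vertical axis, same unit), from group means. Grey points are genes not called, red points the 19 genes with the higher NOD response and blue points the 30 with the higher B10 response. The diagonal marks equal responses, and most grey points lie close to it.

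The 49 genes did not share a single kind of response. With the higher B10 response, 9 genes rose in both strains, 6 rose in B10 and were not called in NOD, 2 rose in B10 and fell in NOD, 7 fell in both and 6 fell in NOD without a call in B10. With the higher NOD response, 8 rose in NOD without a call in B10, 2 rose in both, 6 fell in both, 2 fell in B10 without a call in NOD, and Arhgap31 fell in B10 and rose in NOD. In all, 19 of the 49 rose and 16 fell in B10, where 13.7% of all genes rose and 18.1% fell. In NOD 20 rose and 21 fell, against 16.1% and 19.5% of all genes. The response was the larger in size in B10 for 25 of the 49 genes and in NOD for 24. Since the same arrays enter the responses and their difference, these counts are a description.

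**Figure D2:**
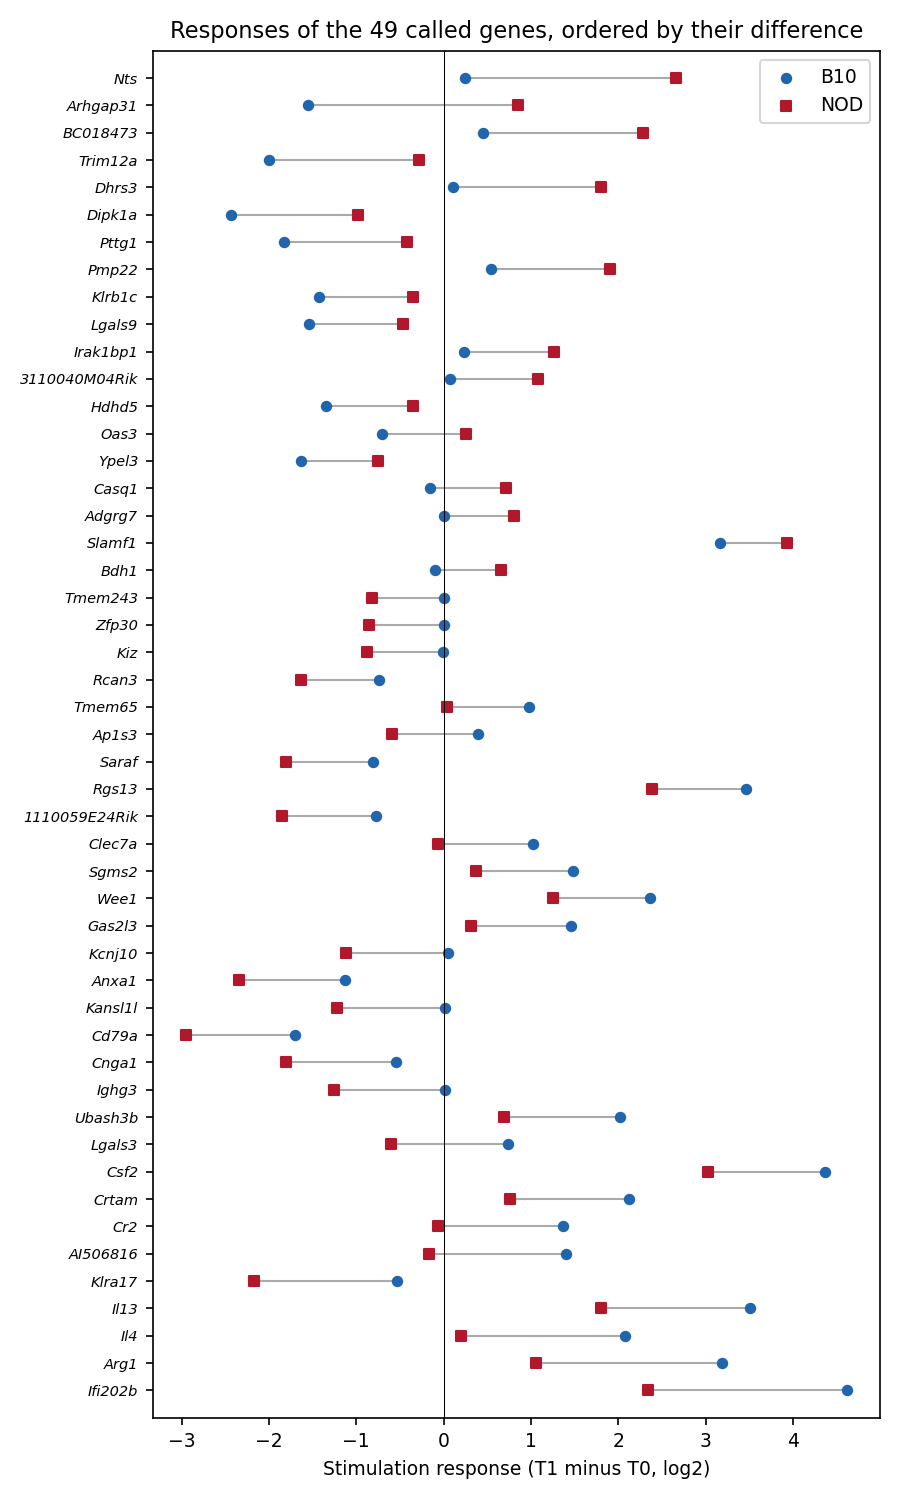
Response to stimulation (horizontal axis, log2, T1 minus T0) of the 49 called genes in B10 (blue circles) and NOD (red squares), ordered by the response difference. Points are differences of group means and the grey line joins the strains. Nts is at the top with 0.25 in B10 and 2.66 in NOD, and Ifi202b at the bottom with 4.62 and 2.34.

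The type 2 cytokine genes Il4 and Il13 rose further in B10 than in NOD. They were the only called genes among 17 measured type 2 cytokines and regulators (0.246% of all genes were called). The median response difference of this list was -0.03, with 7 above 0 and 10 below, where 52.5% of all genes were above 0. Il4, the cytokine that defines type 2 helper cells, stood at 10.02, 10.01 and 9.96 (log2 intensity) on the B10 T0 arrays and at 12.44 and 11.72 at T1. On the NOD arrays it stood at 8.99, 8.66 and 9.31 at T0 and at 9.02 and 9.36 at T1. The B10 groups were thus apart, while the NOD groups overlapped. The response was 2.08 in B10 and 0.20 in NOD, a difference of -1.88 ± 0.293 (limma's standard error; adjusted p = 0.0216), or 3.68-fold. Il13, which acts on epithelium and macrophages in type 2 responses, was at 7.01, 7.22 and 6.97 in B10 at T0 and rose to 10.94 and 10.20. In NOD it went from 6.92, 7.21 and 6.88 to 8.60 and 9.02. Before stimulation the strains overlapped in Il13, and afterwards both B10 arrays lay above both NOD arrays. The Il13 response difference was -1.70 ± 0.279 (adjusted p = 0.0307), 3.25-fold. Il5, the eosinophil growth factor, had a larger response difference of -2.05 ± 0.482 that missed the threshold (adjusted p = 0.137). Its B10 T1 arrays were far apart at 8.99 and 7.21, while both NOD T1 arrays read 5.98, after T0 values of 4.33, 4.46 and 4.27 in B10 and 4.30, 4.24 and 4.31 in NOD. Il4 kept its call in 3 of the 10 fits that each left out 1 array (B10 T1 replicate 3, NOD T0 replicate 2 or NOD T0 replicate 3), with values from -2.24 to -1.52. Il13 kept its call in 2 (B10 T0 replicate 2 or B10 T1 replicate 3), with values from -2.07 to -1.32, and the other omissions ended each call. Both calls also ended with every probe set tested (adjusted p = 0.116 for Il4 and 0.128 for Il13). That of Il4 ended with trend and robust eBayes settings (adjusted p = 0.0877), and that of Il13 with arrays at a common 75th percentile (adjusted p = 0.0829) and with array weights (adjusted p = 0.0557).

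Csf2, which encodes the myeloid growth factor GM-CSF, behaved likewise. It was at 5.24, 5.23 and 5.15 in B10 at T0 and reached 9.78 and 9.37, against 4.93, 5.02 and 5.14 rising to 8.25 and 7.87 in NOD. Both strains showed a large rise, and the B10 T1 arrays lay above the NOD T1 arrays. The response difference was -1.34 ± 0.199 (adjusted p = 0.0175), 2.53-fold. Without B10 T0 replicate 1, B10 T0 replicate 3, B10 T1 replicate 2, NOD T0 replicate 3 or NOD T1 replicate 3 the Csf2 call ended, with values from -1.55 to -1.13 over the omissions. Csf2 was the only called gene among 13 measured growth and haematopoietic cytokines and receptors (0.246% of all genes were called). The median response difference of this list was -0.04, with 6 above 0, against 52.5% of all genes. Il21, which helps B cells and was the lowest of the list, differed by -1.67 ± 0.703 (adjusted p = 0.495). The blood cell growth factor gene Il3 differed by -1.14 ± 0.241 (adjusted p = 0.095), and Il2, the T cell growth factor, by -0.94 ± 0.18 (adjusted p = 0.0608). Ifng, the type 1 cytokine interferon gamma, rose by 4.22 in B10 and 4.21 in NOD, a difference of -0.01 ± 0.358 (adjusted p = 0.995).

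Il4, Il13, Il5, Csf2 and Il3 lie on chromosome 11 in one stretch of the genome, with housekeeping genes and transporters between them. Of 13 genes tested from Kif3a to Il3, 3 were called (0.246% of all genes were), with a median response difference of -0.21. The stretch was chosen with results of these data known, so the count is a description. The genes between the cytokines stayed close to 0: Rad50, a DNA repair gene next to Il13 and Il5, differed by 0.22 and Irf1, an interferon regulatory factor, by 0.10. Slc22a5, Slc22a21, Slc22a4, Pdlim4 and P4ha2 also missed the threshold. Kif3a, a motor protein gene at the edge beyond Il4, differed by -0.59 (adjusted p = 0.166).

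**Figure D3:**
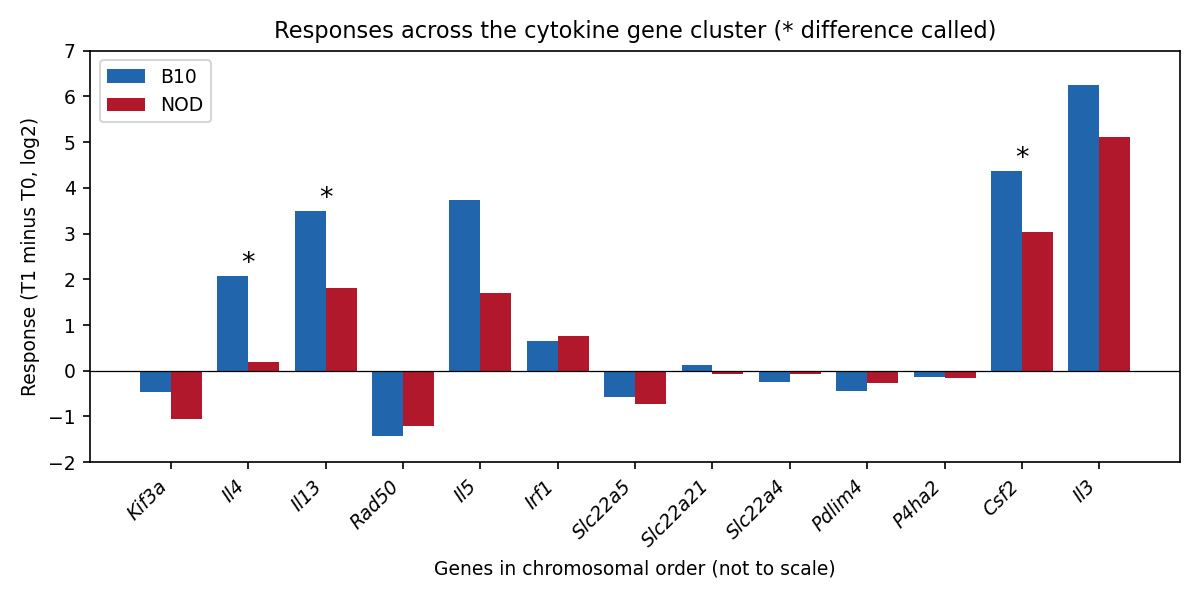
Response to stimulation (vertical axis, log2, T1 minus T0) in B10 (blue bars) and NOD (red bars) for the 13 tested genes of the chromosome 11 cytokine cluster, in chromosomal order and not to scale. Bars are differences of group means and an asterisk marks a called difference. Il4, Il13 and Csf2 carry asterisks; Il5 and Il3 show taller B10 bars without a call.

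NFAT acts through GGAAA cores, so the letters upstream of these cytokine genes are shown, 250 bases before the RefSeq start in GRCm38.p6. Capitals mark GGAAA on either strand (TTTCC where it lies on the other strand). Il4 has a pair of listed starts, and the one further upstream is given. Il4 is at chr11:53618666-53618915 on the minus strand, Il13 at chr11:53634703-53634952 on the minus strand, Il5 at chr11:53720544-53720793 on the plus strand and Csf2 at chr11:54249900-54250149 on the minus strand.
Il4: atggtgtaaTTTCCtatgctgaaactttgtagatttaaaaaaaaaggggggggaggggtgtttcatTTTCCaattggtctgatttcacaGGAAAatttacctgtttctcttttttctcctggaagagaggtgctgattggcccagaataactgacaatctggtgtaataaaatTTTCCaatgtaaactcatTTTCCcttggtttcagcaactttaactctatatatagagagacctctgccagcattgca
Il13: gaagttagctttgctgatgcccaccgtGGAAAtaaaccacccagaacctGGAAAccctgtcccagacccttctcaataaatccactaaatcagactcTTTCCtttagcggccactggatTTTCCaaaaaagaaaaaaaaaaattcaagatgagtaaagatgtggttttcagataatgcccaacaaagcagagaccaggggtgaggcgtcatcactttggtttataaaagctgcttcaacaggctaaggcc
Il5: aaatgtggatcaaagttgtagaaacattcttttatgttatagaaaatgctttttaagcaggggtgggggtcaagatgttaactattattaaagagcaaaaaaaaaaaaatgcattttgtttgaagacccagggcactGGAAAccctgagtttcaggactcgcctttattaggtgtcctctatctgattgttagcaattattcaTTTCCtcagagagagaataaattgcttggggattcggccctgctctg
Csf2: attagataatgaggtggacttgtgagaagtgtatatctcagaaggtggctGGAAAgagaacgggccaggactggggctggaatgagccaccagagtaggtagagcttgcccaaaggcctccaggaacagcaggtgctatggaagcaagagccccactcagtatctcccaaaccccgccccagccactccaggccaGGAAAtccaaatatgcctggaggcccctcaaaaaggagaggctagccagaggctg
The core occurs 5 times for Il4, 4 times for Il13 and 2 times each for Il5 and Csf2; the window of the other Il4 start holds 0. A match is a description of letters, since 55.6% of 32851 RefSeq windows of this length hold GGAAA. Among 50 windows of the 35 named genes with a promoter entry, 34 held GGAAA. The AP-1 motif TGANTCA was in 4 of the 50 (6.75% of all windows) and the GATA core AGATAA in 7 (9.99%).

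Ifi202b had the response difference with the lowest adjusted p and the most negative value. It encodes an Ifi200 family protein that binds DNA and is known to restrain the DNA sensor Aim2. On B10 arrays it read 3.96, 3.85 and 3.90 at T0 and 8.45 and 8.59 at T1, and on NOD arrays 4.98, 4.95 and 5.17 at T0 and 7.33 and 7.42 at T1. The order of the strains turned: all NOD arrays were above all B10 arrays at T0 and below them at T1. The response difference was -2.28 ± 0.145 (adjusted p = 3.36e-05), 4.85-fold, and it stayed called in all 10 omissions with values from -2.35 to -2.21. It was also the only gene called when the difference was tested against a minimum of 2-fold. Arg1, which splits arginine into ornithine and urea, went from 5.53, 5.15 and 5.56 to 8.72 and 8.48 in B10 and from 4.99, 5.29 and 5.25 to 6.33 and 6.15 in NOD. Starting levels overlapped, and the response difference was -2.12 ± 0.206 (adjusted p = 0.00103), 4.36-fold, called in all 10 omissions (-2.24 to -1.99). Arg1 is widely expressed by macrophages; the 13 measured monocyte and macrophage markers had a median response difference of -0.22 and none was called. Their mean level was 7.77 to 8.18 in B10 T0, 6.58 to 6.73 in B10 T1, 8.45 to 8.73 in NOD T0 and 6.89 to 7.22 in NOD T1, and their part in the Arg1 result was not tested.

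**Figure D4:**
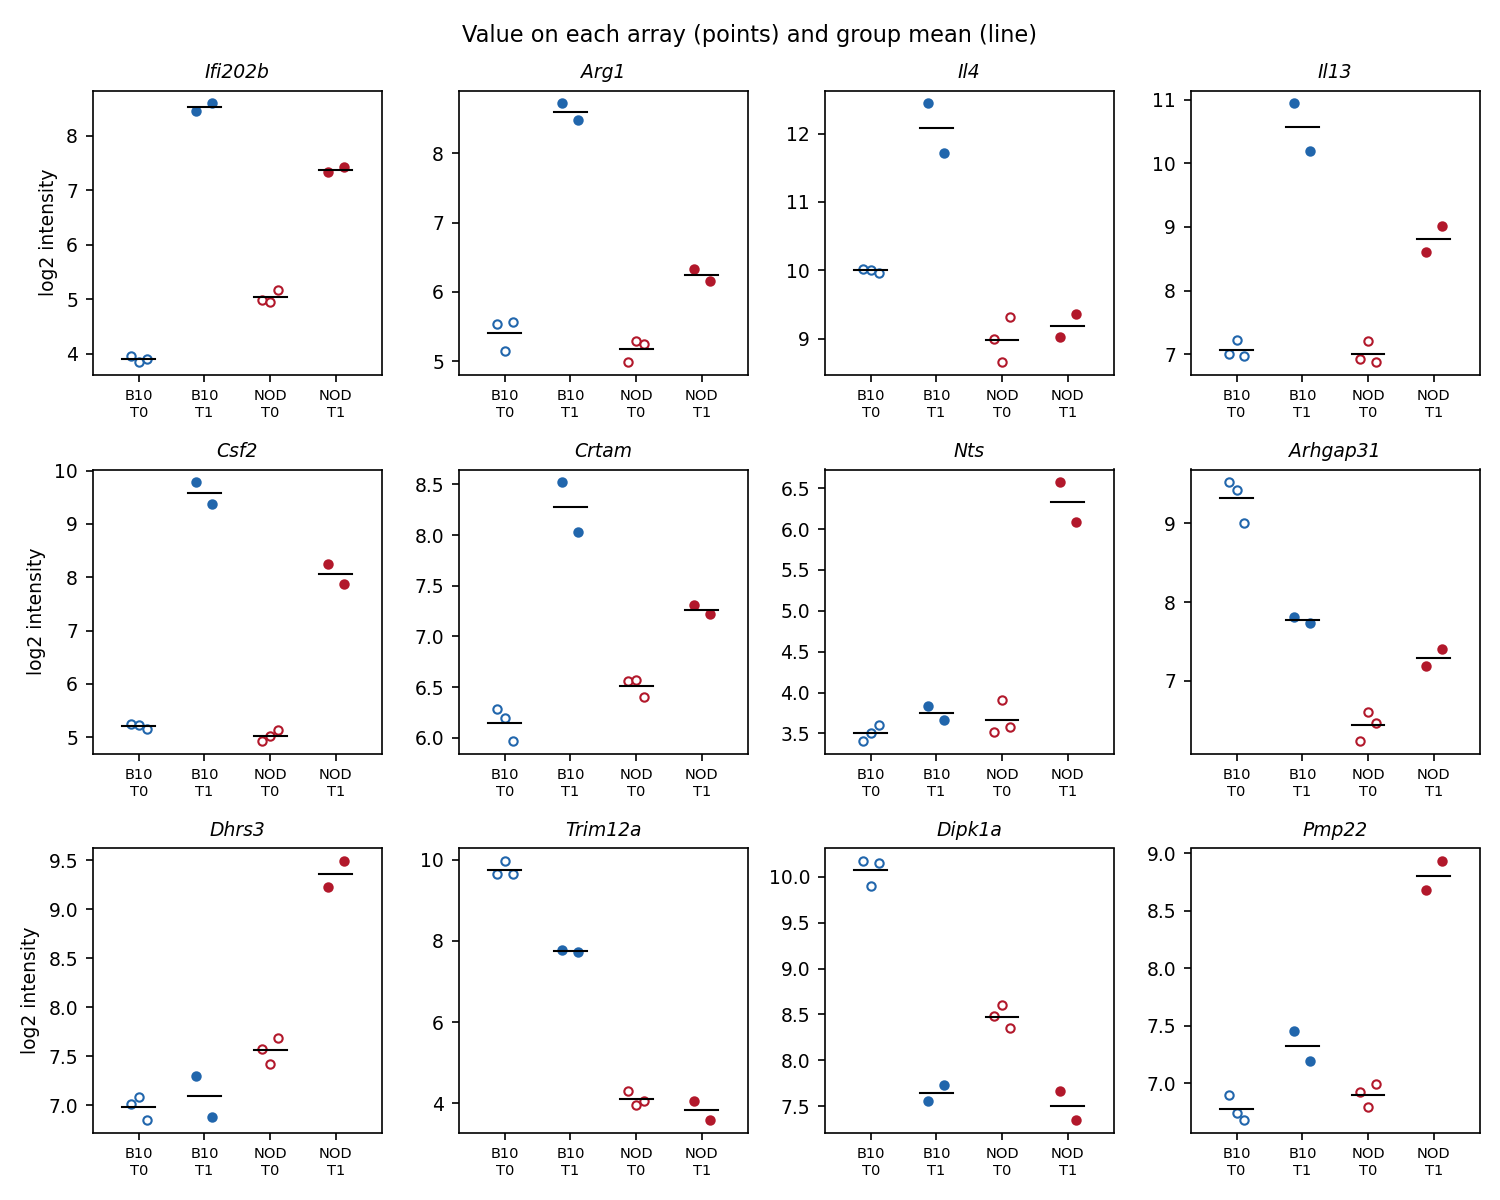
Log2 intensity (vertical axis, own range in each panel) of 12 called genes on each array, by strain and state. Open circles are T0 arrays, filled circles T1 arrays, and the line is the group mean. Ifi202b changes the order of the strains between T0 and T1, Nts rises on both NOD T1 arrays only, and Arhgap31 moves in opposite directions.

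Another 5 genes rose in both strains, and further in B10. Crtam, a receptor of activated T and NK cells, went from 6.28, 6.2 and 5.97 to 8.52 and 8.03 in B10 and from 6.56, 6.57 and 6.40 to 7.31 and 7.22 in NOD. The NOD arrays were the higher at T0 and the lower at T1, and the response difference was -1.37 ± 0.203 (adjusted p = 0.0175). Ubash3b, a phosphatase that damps T cell receptor signalling, rose by 2.02 in B10 and 0.69 in NOD (difference -1.33 ± 0.236, adjusted p = 0.0466). Its T1 arrays read 9.83 and 9.20 in B10 and 8.18 and 8.04 in NOD, after T0 values of 7.36 to 7.73 and 7.37 to 7.46. The cell cycle kinase Wee1, which delays entry into mitosis, rose by 2.36 in B10 and 1.25 in NOD. Sgms2, a sphingomyelin synthase, rose by 1.48 and 0.38. Rgs13, which shortens G protein signals, rose by 3.46 and 2.39, from T0 arrays at 4.19 to 4.24 in B10 and 4.33 to 4.54 in NOD. Omissions ended calls here: Crtam was lost without B10 T1 replicate 2, NOD T0 replicate 1 or NOD T1 replicate 3 (-1.62 to -1.12 over all omissions). Wee1 was lost without B10 T1 replicate 2, NOD T0 replicate 1, NOD T0 replicate 3 or NOD T1 replicate 3 (-1.20 to -1.03), and Sgms2 without B10 T1 replicate 2 or NOD T1 replicate 3 (-1.16 to -1.04). Ubash3b stayed called only without B10 T0 replicate 2 or B10 T1 replicate 3 (-1.65 to -1.01), and Rgs13 only without NOD T0 replicate 1 or NOD T1 replicate 2 (-1.25 to -0.88).

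Besides Il4 and Cr2, 6 genes rose in B10 without a call in NOD or fell there. Lgals3, which encodes the sugar-binding protein galectin-3, rose in B10 from 8.12, 8.27 and 8.08 to 8.85 and 8.93 and fell in NOD from 8.40, 8.19 and 8.39 to 7.52 and 7.94. All T1 arrays of each strain lay outside the range of its T0 arrays, in opposite directions, and the response difference was -1.33 ± 0.183 (adjusted p = 0.0132). Ap1s3, a subunit of a vesicle adaptor complex, rose by 0.39 in B10 and fell by 0.59 in NOD. Clec7a, the beta-glucan receptor dectin-1, rose by 1.02 in B10 and had a response of -0.06 in NOD (difference -1.08 ± 0.174, adjusted p = 0.0246). Gas2l3, a linker of actin and microtubules, responded by 1.45 and 0.32, and Tmem65, a mitochondrial membrane protein, by 0.98 and 0.04. AI506816, which has no gene name, had values of 7.85, 7.82 and 7.66 rising to 9.49 and 8.87 in B10, and of 5.49, 5.40 and 5.28 against 5.37 and 5.06 in NOD (difference -1.58 ± 0.23, adjusted p = 0.0168). In both states its B10 arrays stood above its NOD arrays. Among the omissions of 1 array, Lgals3 lost its call only without B10 T1 replicate 2 (-1.54 to -1.12 over all omissions). Its call also ended without both B10 replicate 3 arrays, with every probe set tested and against a minimum of 2-fold. AI506816 lost its call without B10 T1 replicate 2, NOD T0 replicate 1 or NOD T1 replicate 3 (-1.88 to -1.27). Clec7a kept its call only without B10 T0 replicate 2 or NOD T1 replicate 3 (-1.21 to -0.96), and Ap1s3 only without B10 T1 replicate 3 (-1.10 to -0.88). Gas2l3 kept its call only without NOD T0 replicate 2 (-1.25 to -1.02), and Tmem65 only without B10 T1 replicate 3, NOD T0 replicate 2 or NOD T1 replicate 2 (-1.07 to -0.82).

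B cell genes were among the called genes although the cells were taken with CD4 beads. Cr2, complement receptor 2, went from 7.65, 7.61 and 7.10 to 8.79 and 8.86 in B10, and from 8.54, 8.13 and 8.68 to 8.47 and 8.29 in NOD. The B10 groups were apart and the NOD groups overlapped, with a response difference of -1.44 ± 0.255 (adjusted p = 0.0466). Cd79a, a signalling chain of the B cell receptor, fell from 8.99, 9.22 and 8.91 to 7.51 and 7.16 in B10 and from 9.27, 9.35 and 9.43 to 6.56 and 6.23 in NOD (difference -1.25 ± 0.197, adjusted p = 0.0241). Ighg3, an immunoglobulin constant region gene, read 5.11, 5.36 and 5.26 and then 5.18 and 5.33 in B10, and 5.99, 5.75 and 5.72 and then 4.54 and 4.60 in NOD (difference -1.27 ± 0.161, adjusted p = 0.00755). Its NOD arrays thus moved from above the B10 arrays to below them. Of 11 measured B cell markers, Cr2 and Cd79a were called, both negative (0.246% of all genes were called). The median response difference of the list was -0.40. Cr2 went against the list: 7 of the 11 fell in B10 and 9 in NOD, against 18.1% and 19.5% of all genes. Only Cr2 was called as rising, in B10. Cd79b, the partner chain of Cd79a, differed by -0.20 and the B cell antigen gene Ms4a1 by -0.19, neither called. The mean level of the list was 8.14 to 8.41 in B10 T0, 7.21 to 7.25 in B10 T1, 8.38 to 8.72 in NOD T0 and 7.01 in both NOD T1 arrays. Its part in other results was not tested, and in bulk RNA fewer cells of a type and less RNA per cell cannot be told apart. Ighg3 was called in all 10 omissions (-1.34 to -1.19). Cr2 kept its call only without NOD T0 replicate 2 (-1.60 to -1.26) and Cd79a only without B10 T0 replicate 2, B10 T1 replicate 3 or NOD T1 replicate 2 (-1.42 to -1.07).

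The remaining genes with the higher B10 response fell further in NOD or fell there alone. Klra17, a lectin-like receptor of the NK gene complex, stood at 6.90, 6.32 and 6.59 on NOD T0 arrays and at 4.40 and 4.46 at T1, and at 4.79, 5.12 and 5.07 and then 4.23 and 4.69 in B10. The strains were apart at T0 and overlapped at T1, and the response difference was -1.64 ± 0.246 (adjusted p = 0.0177). The T1 arrays, at 4.23 to 4.69, lay near the low end of the scale. This may limit how much of a fall from the lower B10 T0 level can be seen. Cnga1, a cyclic nucleotide-gated channel subunit, fell by 1.81 in NOD and by 0.55 in B10, where it was already low (4.12 to 4.19 at T0). Anxa1, a lipid-binding protein that limits inflammation, fell by 2.35 and 1.13. Its T0 arrays were at 8.26, 8.43 and 8.11 in NOD and 6.91, 7.07 and 7.30 in B10, and its T1 arrays overlapped between strains at 5.81 to 6.11. Kcnj10, a potassium channel, fell from 6.62, 6.68 and 6.77 to 5.52 and 5.62 in NOD and stayed between 5.72 and 5.94 on all B10 arrays (difference -1.17 ± 0.141, adjusted p = 0.00725). Kcnj10 was called in all 10 omissions (-1.25 to -1.10). Klra17 lost its call without B10 T0 replicate 1, NOD T1 replicate 2 or NOD T1 replicate 3 (-1.87 to -1.41), Cnga1 without B10 T1 replicate 2 or NOD T1 replicate 3 (-1.36 to -1.13), and Anxa1 kept it only without B10 T0 replicate 3, NOD T0 replicate 3 or NOD T1 replicate 2 (-1.36 to -1.07).

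A pair of these genes acts in the calcium pathway that ionomycin engages. Saraf, which limits calcium entry after store release, fell by 0.81 in B10, from 11.44, 11.46 and 11.70 to 10.67 and 10.79, and by 1.81 in NOD, from 10.75, 10.63 and 10.60 to 9.02 and 8.68 (difference -1.0 ± 0.174, adjusted p = 0.0425). Rcan3, a regulator of the phosphatase calcineurin, fell by 0.74 in B10 and 1.64 in NOD (difference -0.89 ± 0.159, adjusted p = 0.0466). It was the only one of 15 measured genes of the NFAT, calcineurin and calcipressin list that was called (0.246% of all genes were). The median of the list was -0.06. Saraf kept its call only without B10 T0 replicate 3 or NOD T1 replicate 2 (-1.17 to -0.84), and Rcan3 in none of the 10 omissions (-0.97 to -0.81). Genes of other or less known function followed the same pattern. Kansl1l, related to a chromatin complex subunit, fell by 1.22 in NOD, the centrosomal protein gene Kiz by 0.88, the zinc finger gene Zfp30 by 0.86 and the membrane protein gene Tmem243 by 0.81, with B10 responses of 0.01, -0.01, 0.01 and 0.01. The unnamed gene 1110059E24Rik fell by 0.77 in B10 and 1.85 in NOD. Kansl1l lost its call without B10 T0 replicate 1, B10 T1 replicate 2 or NOD T1 replicate 3 (-1.34 to -1.14), and 1110059E24Rik without B10 T1 replicate 2 or NOD T1 replicate 3 (-1.12 to -1.0). Kiz and Zfp30 were called in none of the omissions (-1.02 to -0.71 and -0.99 to -0.74), and Tmem243 only without NOD T1 replicate 2 (-0.93 to -0.71).

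Among genes with the higher NOD response, Nts and Arhgap31 differed most. Nts encodes neurotensin, a peptide best known from gut and brain. It read 3.41, 3.51 and 3.60 on B10 T0 arrays and 3.84 and 3.67 at T1, against 3.52, 3.91 and 3.58 and then 6.57 and 6.08 in NOD. Only the NOD T1 arrays stood apart, and the response difference was 2.41 ± 0.216 (adjusted p = 0.000649), 5.30-fold. Arhgap31, an inactivator of the small GTPases Cdc42 and Rac1, fell in B10 from 9.52, 9.43 and 9.01 to 7.81 and 7.73 and rose in NOD from 6.24, 6.61 and 6.47 to 7.19 and 7.40. The strains were thus far apart at T0 and close at T1, and the response difference was 2.41 ± 0.218 (adjusted p = 0.000649). Arhgap31 was the only one of 29 measured candidate genes from NOD diabetes (Idd) regions to be called (0.246% of all genes were). The median of that list was 0. Dhrs3, an enzyme that turns retinal back into retinol, went from 7.57, 7.42 and 7.69 to 9.23 and 9.49 in NOD, and from 7.01, 7.08 and 6.85 to 7.30 and 6.88 in B10 (difference 1.69 ± 0.2, adjusted p = 0.00721). Pmp22, a membrane protein first found in myelin, rose from 6.92, 6.79 and 6.99 to 8.68 and 8.93 in NOD and from 6.90, 6.74 and 6.68 to 7.45 and 7.19 in B10. Here the strains overlapped at T0 and were apart at T1 (difference 1.36 ± 0.172, adjusted p = 0.00755). All 4 genes kept their calls in all 10 omissions, with values from 2.17 to 2.65 for Nts, 2.30 to 2.56 for Arhgap31, 1.47 to 1.90 for Dhrs3 and 1.22 to 1.49 for Pmp22.

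Further genes rose in NOD with smaller differences or lower levels. BC018473, which has no gene name, stood at 8.39, 8.15 and 8.37 and then 10.41 and 10.77 in NOD, and at 4.80, 4.76 and 5.08 and then 5.59 and 5.07 in B10 (difference 1.84 ± 0.236, adjusted p = 0.00755). In both states all its NOD arrays were above all its B10 arrays. The unnamed gene 3110040M04Rik rose by 1.08 in NOD with a B10 response of 0.07, and its 2 probe sets both gave a difference of 1.01. Irak1bp1, a partner of the signalling kinase IRAK1, rose by 1.26 in NOD. The calcium-storing protein gene Casq1 rose by 0.71, the adhesion receptor gene Adgrg7 by 0.81 and the ketone body enzyme gene Bdh1 by 0.66, with B10 responses of -0.16, 0.01 and -0.09. Slamf1, a self-binding receptor of activated lymphocytes, rose in both strains, from 8.20, 8.29 and 8.31 to 11.48 and 11.38 in B10 and from 7.59, 7.76 and 7.66 to 11.64 and 11.58 in NOD. NOD started lower and ended slightly higher, a difference of 0.77 ± 0.135 (adjusted p = 0.0429). The other 10 measured genes of the SLAM list, receptors and adaptors, were not called (0.246% of all genes were), and the list's median was -0.05. BC018473 was called in all 10 omissions (1.57 to 2.1) and 3110040M04Rik in all but the one without B10 T1 replicate 2 (0.91 to 1.11). Irak1bp1 kept its call only without NOD T0 replicate 3 (0.90 to 1.16), and Casq1, Adgrg7, Slamf1 and Bdh1 in no omission (0.78 to 0.93, 0.75 to 0.87, 0.72 to 0.83 and 0.71 to 0.78).

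The other genes with the higher NOD response fell in B10. Trim12a, a relative of the antiviral protein TRIM5, fell from 9.64, 9.96 and 9.65 to 7.78 and 7.73 in B10, and read 4.31, 3.95 and 4.05 and then 4.06 and 3.59 in NOD. Its NOD arrays lay far below its B10 arrays in both states, near the low end of the scale where a fall can hardly be seen, so the difference rests on the fall in B10 (difference 1.72 ± 0.217, adjusted p = 0.00755). Dipk1a, a kinase-like protein gene, fell from 10.17, 9.90 and 10.15 to 7.56 and 7.73 in B10 and from 8.48, 8.60 and 8.35 to 7.66 and 7.35 in NOD, so that the strains were apart at T0 and overlapped at T1 (difference 1.46 ± 0.182, adjusted p = 0.00755). Pttg1, the securin that restrains the separation of sister chromatids, fell by 1.82 in B10 and 0.42 in NOD. Its T0 arrays read 9.0, 9.17 and 9.25 in B10 and 8.79, 8.67 and 8.90 in NOD, and its T1 arrays 7.06 and 7.57 against 8.23 and 8.50 (difference 1.40 ± 0.212, adjusted p = 0.0177). Lgals9, which encodes galectin-9, turned from B10-higher at T0 to NOD-higher at T1: 9.11, 9.17 and 8.99 fell to 7.46 and 7.65 in B10, and 8.61, 8.53 and 8.68 to 7.96 and 8.32 in NOD (difference 1.07 ± 0.172, adjusted p = 0.0246). Hdhd5, a hydrolase-like protein gene, fell by 1.34 and 0.35, and the growth regulator Ypel3 by 1.64 and 0.75. Trim12a and Dipk1a kept their calls in all 10 omissions (1.49 to 1.95 and 1.30 to 1.62). Pttg1 lost it without B10 T0 replicate 3, B10 T1 replicate 2, NOD T0 replicate 1, NOD T0 replicate 2 or NOD T1 replicate 3 (1.15 to 1.66). Lgals9 kept it only without B10 T0 replicate 3, B10 T1 replicate 3 or NOD T1 replicate 2 (0.90 to 1.25). Hdhd5 kept it only without B10 T0 replicate 2, B10 T1 replicate 3, NOD T0 replicate 2 or NOD T1 replicate 3 (0.89 to 1.10), and Ypel3 only without B10 T1 replicate 3 (0.77 to 1.00).

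Klrb1c, which encodes the NK cell receptor NK1.1, fell from 5.79, 5.62 and 5.75 to 4.20 and 4.37 in B10, and from 4.58, 4.52 and 4.37 to 4.10 and 4.17 in NOD. B10 arrays were clearly the higher at T0 and close to the NOD arrays at T1 (difference 1.08 ± 0.149, adjusted p = 0.0132). The NOD arrays, at 4.10 to 4.58, lay near the low end of the scale where a fall can hardly be seen. The difference thus rests on the fall in B10. Klrb1c was the only one of 7 measured NK cell markers called (0.246% of all genes were), and the median of the list was -0.04. The NK receptor genes Ncr1, at 4.60 to 4.91, and Klre1, at 3.50 to 3.83, were low on all 10 arrays, while Klrk1, at 5.58 to 6.0 in B10 T0 and 5.21 to 5.44 in NOD T0, was higher in B10. The mean level of the 7 markers, Klrb1c included, was 5.11 to 5.31 in B10 T0 and 4.81 on both B10 T1 arrays. In NOD it was 4.89 to 4.95 at T0 and 4.65 on both T1 arrays. Klrb1c is part of that mean and moves it by construction. The response difference was above 0 for 3 of the 7, Klrb1c among them, and below 0 for 4, where 52.5% of all genes were above 0. The part of NK cell markers in the Klrb1c result was not tested. Klrb1c lost its call without B10 T1 replicate 2 or NOD T1 replicate 3 (0.99 to 1.16 over all omissions).

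Interferon-stimulated genes are the antiviral effectors and regulators switched on by interferon. Of 33 measured members 16 fell and 3 rose in B10, where 18.1% of all genes fell and 13.7% rose. In NOD 6 fell and 6 rose, near the shares of all genes there, 19.5% and 16.1%. In the response difference 1 was called (0.246% of all genes were), Oas3, an enzyme that activates RNA decay. It fell from 6.44, 6.89 and 6.64 to 5.95 and 5.94 in B10 and read 6.40, 6.33 and 6.37 and then 6.54 and 6.71 in NOD (difference 0.97 ± 0.174, adjusted p = 0.0485). The Oas3 call held only in the omission of B10 T0 replicate 1 (0.85 to 1.08). The median response of the list was -0.56 in B10 and 0.22 in NOD, and the median response difference was 0.55, against 0.01 over all genes. The mean level of the list was 7.69 to 8.22 in B10 T0 and 7.52 to 7.55 in B10 T1. In NOD it was 7.51 to 7.76 at T0 and 7.73 to 8.05 at T1. The B10 T0 arrays were thus widely spread, and the NOD groups overlapped. The response difference was above 0 for 31 of the 33, against 52.5% of all genes, and the unadjusted p was under 0.05 for 20, against 9.23%. These genes are co-regulated, so their number is not a number of independent observations. Usp18, a brake on interferon receptor signalling, had the highest value, 1.31 ± 0.336 (adjusted p = 0.191), with T1 arrays at 7.90 and 7.71 in B10 and 8.18 and 9.02 in NOD. Irf9 and Stat2, subunits of the factor that carries the interferon signal to the nucleus, differed by 1.03 ± 0.208 (adjusted p = 0.08) and 1.02 ± 0.219 (adjusted p = 0.0986). Iigp1, a GTPase against intracellular parasites, was the lowest at -0.13. The list median stayed between 0.43 and 0.69 in every alternative, including each omission.

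The Ifi200 family, interferon-inducible DNA-binding proteins of distal chromosome 1, held values in both directions. Of 8 measured members of the list, Ifi202b alone was called (0.246% of all genes were), and the median response difference was -0.55 with values from -2.28 to 1.21. The response difference was below 0 for 6 of the 8, where 52.5% of all genes were above 0. The unadjusted p was under 0.05 for 5, against 9.23% of all genes. The list did not include Ifi206, which differed by 0.87, and Ifi207, by -0.63, neither called. Ifi205 was second lowest at -1.90 ± 0.402 (adjusted p = 0.095): its T1 arrays read 8.77 and 7.74 in B10 and 6.31 and 6.70 in NOD, after T0 arrays at 4.94 to 5.64 and 5.09 to 5.74. Ifi213 had the highest value, 1.21 ± 0.318 (adjusted p = 0.202), with B10 arrays falling from 7.38, 7.97 and 7.24 to 6.58 and 6.16 and NOD arrays at 5.40, 5.04 and 5.01 and then 5.48 and 4.92. The family median ranged from -0.77 without NOD T1 replicate 2 to -0.27 without NOD T1 replicate 3. Family members are similar in sequence, and their probe sets may share signal, which was not tested.

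**Figure D5:**
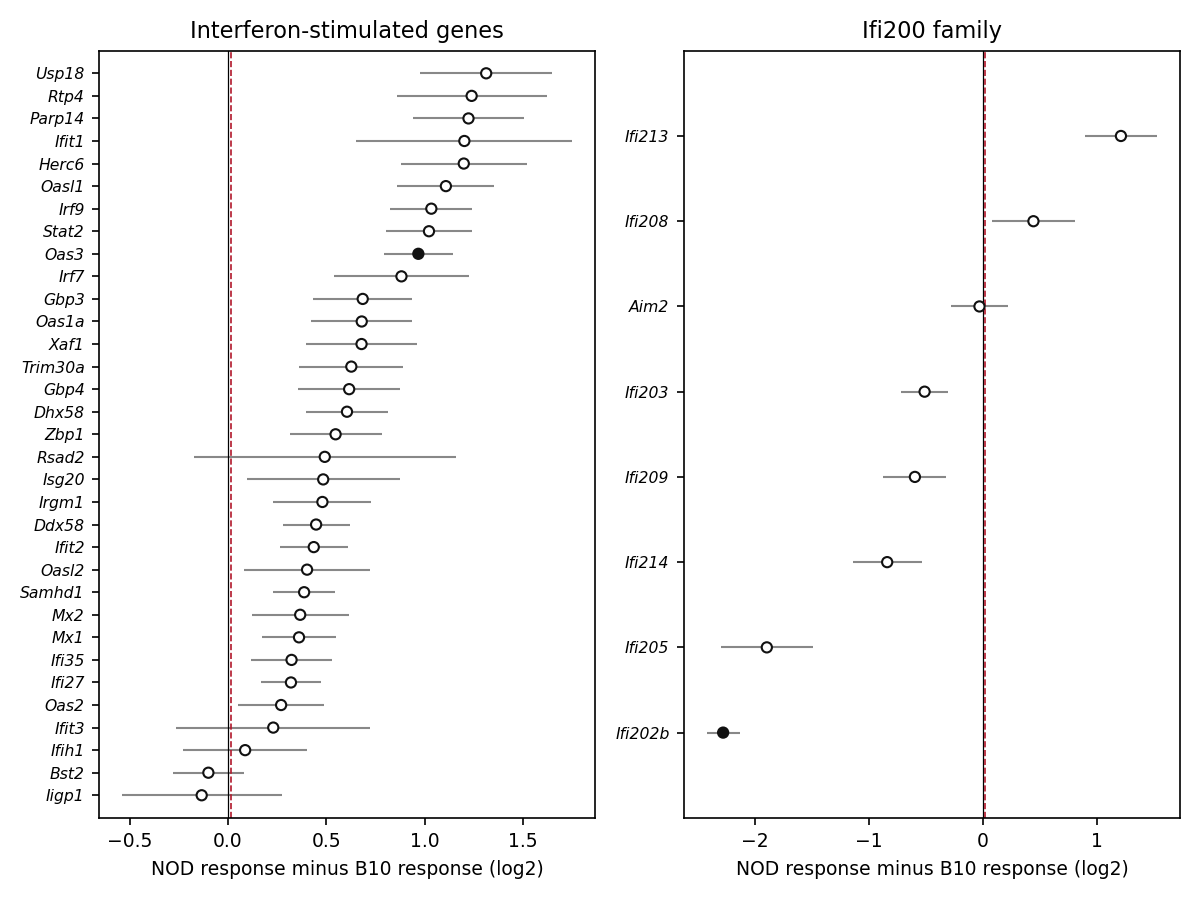
Response difference (horizontal axis, log2, NOD response minus B10 response) of 33 interferon-stimulated genes (left) and 8 Ifi200 family genes (right). Points are limma estimates, bars ± 1 standard error, filled points are called, and the dashed line is the median of all genes. Nearly all points on the left lie above 0, while those on the right spread from -2.28 to 1.21.

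The called genes differed between strains at T0, at T1 or in both states. At T0, 15 of the 49 were called NOD-higher and 11 B10-higher, against 3.44% and 2.35% of all genes, and 23 were not called. At T1, 13 were NOD-higher and 22 B10-higher, against 1.77% and 1.83%, and 14 were not called. The T0 and T1 contrasts use the arrays that set the response difference, so these counts are a description. A strain difference was called at T1 and not at T0 in 15 genes with the higher B10 response, among them Arg1, Il13, Csf2 and Lgals3, and in 8 with the higher NOD response, among them Nts and Pmp22. Not being called at T0 does not show equal levels: the T0 arrays of Crtam, Pttg1 and Oas3 were already apart between the strains. A difference called only at T0 was seen in 9 genes with the higher B10 response, all NOD-higher at T0, such as Klra17, Anxa1, Cnga1 and Kcnj10. It was also seen in 5 with the higher NOD response, all B10-higher at T0: Arhgap31, Dipk1a, Hdhd5, Klrb1c and Slamf1. The called order of the strains turned in 5 genes: Ifi202b, Ighg3 and 1110059E24Rik went from NOD-higher to B10-higher, and Bdh1 and Lgals9 from B10-higher to NOD-higher. Il4, AI506816, Saraf and Trim12a were B10-higher in both states, and BC018473, Dhrs3 and 3110040M04Rik NOD-higher in both.

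Called genes were few in every pathway list. In 37 lists with 655 distinct measured genes, 10 genes in 9 lists were called, 1.53% against 0.246% of all genes; at such shares most lists of this size hold no call. All 30 ribosome biogenesis genes rose in NOD and 28 rose in B10, against 16.1% and 13.7% of all genes, with a median response difference of -0.04 and none called. Of 18 measured genes of naive and resting T cells 12 fell in B10 and 13 in NOD, against 18.1% and 19.5% of all genes, with a median of -0.01. The AP-1, BATF and IRF factors (20 measured, median -0.05), the NF-kB subunits and inhibitors (17, median 0.00), the EGR and NR4A factors (12, median -0.04) and the TNF superfamily (26, median 0.15) had no call. Neither did the ATF4 response and tRNA synthetase genes (25, median 0.12), the heat shock and chaperone genes (20, median -0.22) or the proteasome subunits (23, median -0.22). List medians this near 0 could change sign: that of the cell cycle genes, 0.07 over 33 genes, was 0.36 without NOD T1 replicate 2 and -0.24 without NOD T1 replicate 3. Single members came close to the threshold. Cd160, an inhibitory receptor, rose by 1.92 in B10 (from 5.71, 5.67 and 5.72 to 8.02 and 7.21), and its NOD arrays went from 4.84, 5.34 and 5.09 to 5.57 and 5.56 (difference -1.44 ± 0.276, adjusted p = 0.0608). H2-Ea, an MHC class II chain gene, fell by 0.83 in B10 and 1.85 in NOD (difference -1.02 ± 0.189, adjusted p = 0.0574). Slc1a4, a neutral amino acid transporter, rose by 0.68 and 1.74 (difference 1.06 ± 0.222, adjusted p = 0.0939).

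The called genes lay on 16 chromosomes. Chromosome 1 held 9 of them (0.802% of its 1122 genes tested), chromosome 11 held 7 (0.448% of 1563), and chromosomes 5 and 7 held 5 each, against 0.246% of all genes. Some were near each other, which was looked at after the values were seen. On distal chromosome 1, from Slamf1 to Ifi202b, 4 of 44 genes tested were called (0.246% of all genes were), Slamf1 and Casq1 with the higher NOD response and Kcnj10 and Ifi202b with the higher B10 response. The median of this stretch was -0.02. In the NK gene complex of chromosome 6, from Klrb1a to Klra17, 3 of 34 were called, with a median of -0.01. Klrb1c was positive and Clec7a and Klra17 were negative. Called neighbours thus differed in direction there, unlike Il4, Il13 and Csf2. The called genes Slamf1, Ifi202b and Klra17 are themselves ends of these stretches, which raises the shares called, so the counts are descriptions.

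The arrays had similar medians of 6.18 to 6.23, but their 75th percentiles were lower at T1 in both strains. These were 7.838 to 7.918 in B10 T0, 7.792 and 7.812 in B10 T1, 7.826 to 7.936 in NOD T0 and 7.725 and 7.792 in NOD T1. Depth does not apply to arrays, whose number limits the precision. CD4 T cell markers were high throughout, with a mean level of at least 10.98 on each B10 T0 array, 10.23 to 10.35 in B10 T1, 10.82 to 10.93 in NOD T0 and 10.04 to 10.23 in NOD T1, and none of 8 was called. The mean levels of the B cell, monocyte and red cell marker lists were above the array medians on every array too. Erythroid markers differed between the strains and within B10: their mean level over 8 of the 12 listed genes was 7.17 to 9.11 in B10 T0, 7.73 to 9.40 in B10 T1, 9.82 to 10.44 in NOD T0 and 10.04 to 10.53 in NOD T1. None was called in the response difference (median -0.33). A fit that took the mean level of Alas2, Klf1 and Car2 as a covariate gave 80 calls, which included all 49. That mean was 7.31 to 9.48 on B10 arrays and 10.13 to 10.72 on NOD arrays, and T0 and T1 overlapped within each strain. It thus largely drops out of the response difference, and keeping the calls was nearly fixed in advance. The part of red cells in the calls was not tested.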

How the data were processed

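Values are log2 intensities of an Affymetrix mouse gene array, which the authors produced by RMA using Affymetrix Power Tools, per the submitters' processing notes. Versions and options are not given in the sources used here, and base 2 is inferred from how far the deposited values extend. RMA corrects background and brings arrays to one distribution, so a shift common to most genes is removed, and fold changes near background are understated. Detection calls are not used here. Of 35486 probe sets, 21789 had 1 gene symbol in the platform annotation, 1621 several and 12076 none. Each of 19938 genes was read from its probe set of highest mean.

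All 10 arrays entered 1 linear model with a mean for each of the 4 groups (limma 3.58.1, R 4.3.3; eBayes; 6 residual and 6.3 prior degrees of freedom; two-sided). Benjamini-Hochberg adjustment ran over the 19938 genes, separately for each contrast: each strain's response, the strains at T0 and at T1, and the response difference. The threshold was 0.05. The members, gene lists and alternatives were chosen with earlier results of these data known, so counts over lists are descriptions without a test. Named genes were the 25 largest positive and 25 largest negative called values whose array differences did not overlap, without unnamed genes and immunoglobulin segments, which left 17 and 25; members of the lists could be named too. The other 7 called genes, 1110059E24Rik, 3110040M04Rik, AI506816, BC018473, Ighg3, Tmem243 and Zfp30, were added after their values were seen. Deviations of equally numbered T0 and T1 arrays from their group means correlated at 0.41 and 0.40 in B10 and -0.014 and 0.22 in NOD; not every pair passed the minimum for pairing, so no block was used. Promoter windows were matched by symbol to RefSeq (GRCm38.p6), and 35 of 42 named genes had one. Motifs were counted on both strands. The procedure was tested on simulated data. Figures were drawn with matplotlib 3.10.9.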

Additional observations from a re-analysis of the deposited data

Results flagged for a closer look

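The tested difference between the responses of the strains picked out 49 genes (limma, adjusted p under 0.05), and each is listed by its response difference, NOD minus B10, on the log2 scale. Single outlying values were not looked for in groups of 2 or 3 arrays. No explanation was weighed.

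Below -1.5 were Ifi202b (-2.28), Arg1 (-2.12), Il4 (-1.88), Il13 (-1.70), Klra17 (-1.64) and AI506816 (-1.58). Between -1.5 and -1.2 were Cr2 (-1.44), Crtam (-1.37), Csf2 (-1.34), Lgals3 (-1.33), Ubash3b (-1.33), Ighg3 (-1.27), Cnga1 (-1.26), Cd79a (-1.25), Kansl1l (-1.24) and Anxa1 (-1.22). Between -1.2 and -1 were Kcnj10 (-1.17), Gas2l3 (-1.14), Wee1 (-1.12), Sgms2 (-1.11), Clec7a (-1.08), 1110059E24Rik (-1.07), Rgs13 (-1.07) and Saraf (-1.0). Smaller were the values of Ap1s3 (-0.99), Tmem65 (-0.94), Rcan3 (-0.89), Kiz (-0.87), Zfp30 (-0.86) and Tmem243 (-0.82).

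On the other side, Nts (2.41), Arhgap31 (2.41), BC018473 (1.84), Trim12a (1.72), Dhrs3 (1.69), Dipk1a (1.46), Pttg1 (1.40) and Pmp22 (1.36) had the largest values. Klrb1c (1.08), Lgals9 (1.07), Irak1bp1 (1.03) and 3110040M04Rik (1.01) exceeded 1. The rest were Hdhd5 (0.99), Oas3 (0.97), Ypel3 (0.89), Casq1 (0.87), Adgrg7 (0.80), Slamf1 (0.77) and Bdh1 (0.76).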

How the results depend on the processing

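No gene named from the 49 interaction calls changed direction under any alternative that tested it. For fits that left out or weighted arrays this was fixed in advance, because the array differences of these genes did not overlap between strains. Settings that change only the test, such as trend and robust eBayes or the 2-fold minimum, leave the values as they were. The kept direction is therefore a description. The number of interaction calls was 31 with arrays at one 75th percentile, which raised the all-gene median response by 0.125 in NOD and 0.067 in B10, 102 with eBayes trend and robust settings, 31 with array weights, 80 with the erythroid covariate and 1 (Ifi202b) against a minimum of 2-fold. Of the 49 genes, 30 stayed called at the 75th percentile, 48 with trend and robust settings (all but Il4), 31 with weights and all with the covariate. The number was 51 with the mean of probe sets, 44 among the brighter genes, and 39 with every probe set tested, 15 of them among the 49 genes. Without both B10 replicate 3 arrays it was 48, with 25 of the 49. Leaving out single arrays gave 13 to 69. With the replicate number as a block there were 50 calls (39 of the 49), with the replicate block within strain 90 (38 of the 49) and with a random replicate block 69 (all 49). The calls between strains at T0 numbered 2316 with array weights, 136 with the erythroid covariate and 20 at 2-fold, and those at T1 292, 128 and 13; omissions gave 571 to 1306 at T0 and 184 to 889 at T1. Response calls at 2-fold were 827 in B10 and 785 in NOD. The cause of these shifts was not tested. Before adjustment, 1841 genes had a p under 0.05. For genes near background the array values give no detection call.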
